A study of Homo sapiens with 17 samples.

Results

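The 31 genes described here encode the proteins that take up glucose, break it down to pyruvate, turn pyruvate into lactate and export it, or admit it to mitochondria through the pyruvate dehydrogenase complex. They form a list of named genes, and all 31 were found among the 60664 genes of the table and passed the minimum of 10 normalized counts on average, as did 15599 genes in all. Expression was measured by RNA-Seq in SF8628, an established cell line of diffuse midline glioma (DMG) with the H3.3 K27M mutation, grown as a monolayer in serum. The cells received the solvent DMSO as vehicle or 1 μM AZD5153, a small molecule that binds the bromodomains of the BET proteins, for 24 or 48 hours, with 3 libraries in each of the 4 groups. All libraries come from 1 line and carry the same mutation, and nothing in the labels says whether replicates were separate cultures, so p-values measure only the spread between these libraries.

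Glucose enters cells through facilitative transporters and is trapped by hexokinases. Phosphofructokinase-1 commits it to glycolysis, under the control of fructose 2,6-bisphosphate, which the PFKFB enzymes make and remove. Aldolase and triose-phosphate isomerase yield glyceraldehyde 3-phosphate, and the steps from *GAPDH* to pyruvate kinase recover ATP. Lactate dehydrogenase regenerates NAD+ and monocarboxylate transporters carry lactate across the membrane, while PDK kinases restrain the pyruvate dehydrogenase complex. Proliferating tumor cells, gliomas among them, are known for using glucose this way even when oxygen is present, and many of these genes are classic targets of the hypoxia-inducible factors (HIFs).

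The libraries held 15759148 to 27335220 reads on genes. The chi-square per degree of freedom between replicates, which is 1 for pure counting noise, was 2.09 to 4.82, except that replicate 1 of DMSO at 24 hours stood apart from replicates 2 and 3 at 15.2 and 22.9. Of the glial and progenitor markers, *VIM*, *CD44*, *NES* and *SOX2* were present in every library, *NES* with group means of 2050.2 and 1993 in DMSO against 758 and 544 in AZD5153, *PDGFRA* read 0.892 to 5.40 normalized counts, *OLIG2* was at 0 throughout, *GFAP* read 22.8 to 57.5, and *ID1* had group means of 920.3 and 489 in DMSO against 10063 and 5226 in AZD5153. The 5 myeloid markers summed to 177 to 213 normalized counts in DMSO and 26.6 to 48.9 in AZD5153, nearly all from *CSF1R*, while *AIF1* was at 0 and *PTPRC*, *CD68* and *ITGAM* stayed at or below 4.50. The 4 endothelial markers summed to 331 to 643 in DMSO and 59.0 to 92.5 in AZD5153, mostly from *PECAM1*, with *CDH5* at 0. The 5 neuronal markers summed to 703 to 886 in DMSO and 754 to 926 in AZD5153, nearly all from *SYT1*, and the 4 epithelial markers to 1028 to 1395 and 1195 to 1835, mostly from *KRT18*. The 8 glial and progenitor markers summed to 29375 to 38296 in DMSO and 36820.4 to 37468 in AZD5153 at 24 hours, and to 22526 to 22865 against 27168 to 28889 at 48 hours. The myeloid, endothelial and epithelial sums moved with the treatment at both times and the glial sum at 48 hours, and their part in the results was not tested. In a bulk culture, fewer cells of a kind and less RNA per cell cannot be told apart.

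With AZD5153, most genes from triose-phosphate isomerase to pyruvate kinase were higher at the deposited scaling. Those of glucose uptake and its early control went in both directions. This grouping by place in the pathway was made after the values were seen. Pyruvate kinase rose most in counts, and *GAPDH*, *TPI1*, *LDHA* and the lactate transporter *SLC16A1* rose at both times. The transporter *SLC2A3* and the kinase *PDK2* fell at both times, and *SLC2A1* and *HK2* changed direction between 24 and 48 hours. At 24 hours AZD5153 left 14 of the 31 genes higher than DMSO and 8 lower, where 33.9% of all tested genes were called higher and 34.6% lower (limma on log2(normalized count + 1), Benjamini-Hochberg adjusted p under 0.05). At 48 hours, 17 were higher and 6 lower, against 33.1% and 33.9% of all tested genes. That is 45.2% and 54.8% of the 31 called higher, so at the deposited scaling the share called higher lay above that of all tested genes at both times, and the shares called lower, 25.8% and 19.4%, lay below it. Under quantile normalization the 24-hour share called higher lay below that of all tested genes. The median log2 fold change of the 31 was 0.08 at 24 hours and 0.17 at 48 hours, beside medians of 0.00037 and 0.00108 over all tested genes. With equal totals the median of the 31 was -0.040 and 0.00046, beside -0.12 and -0.17 over all genes. Over the members that average 100 or more normalized counts it was 0.14 and 0.32 at the deposited scaling. Over all 10961 genes at that cut it was 0.0033 and 0.053. Of those 10961, 4219 were called higher and 4178 lower at 24 hours, then 4428 and 3877. Both shares are larger than over all tested genes, and most members lie above that cut. The 24-hour median of the 31 was 0.14 without replicate 3 of AZD5153 at that time. The 12 genes higher at both times were *GPI*, *PFKM*, *ALDOA*, *TPI1*, *GAPDH*, *PGK1*, *ENO1*, *PKM*, *LDHA*, *SLC16A1*, *PDK3* and *PDHB*, of which quantile normalization turned *GAPDH* and *LDHA* at 24 hours, *PFKM* at 48 hours and *ENO1* at both times. *SLC2A3*, *PFKFB4* and *PDK2* were the 3 lower at both times. The counts of *ALDOA*, *LDHB* and *PDK2* may hold reads of genes that overlap them, and without these 3, chosen after the data were seen, 13 were higher and 7 lower at 24 hours, then 16 and 5. *SLC2A1*, *HK2*, *PFKFB3* and *DLAT* passed at both times in opposite directions, and *PFKFB2*, *ALDOC*, *LDHB*, *PDK1* and *PDHA1* passed at neither.

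**Figure D1:**
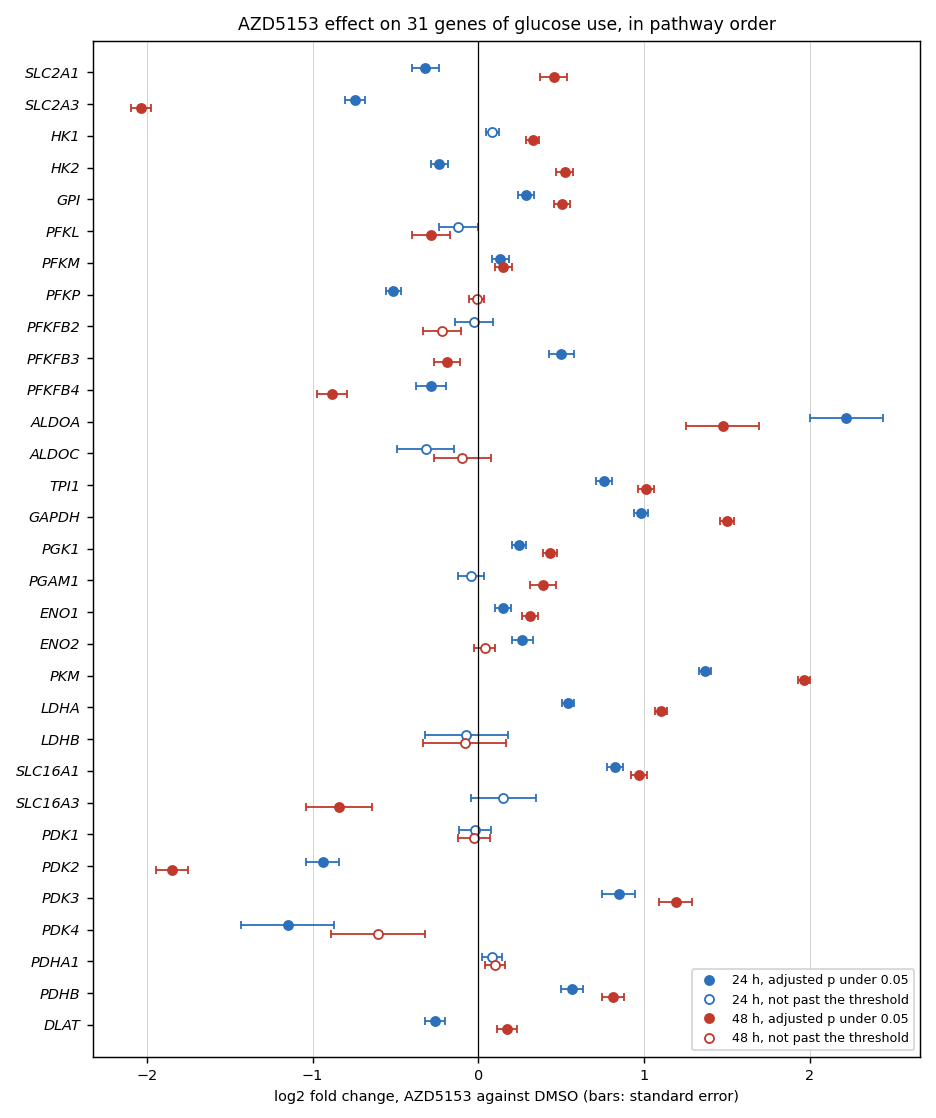
log2 fold change of AZD5153 against DMSO for the 31 genes in pathway order, at 24 hours (blue) and 48 hours (red), with bars of 1 standard error from the limma fit of 12 libraries. Filled points passed the adjusted threshold of 0.05; *PKM* reaches 1.96 and *SLC2A3* -2.04 at 48 hours.

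The genes were grouped by place in the pathway after their values were seen, so these counts are a description. The 7 genes from *TPI1* to *PKM* gave 6 higher at each time, *PGAM1* at 24 hours and *ENO2* at 48 hours not passing. Of these 7, *GAPDH* at 24 hours and *ENO1* at both times turned under quantile normalization. The median log2 fold change of the 7 was 0.26 and 0.43. Among the 13 genes from uptake to aldolase, the 24-hour comparison called 4 higher and 5 lower and the 48-hour comparison 6 higher and 4 lower, with medians of -0.12 and -0.01. Of the 4 lactate genes, 2 were higher at each time and 1 was lower at 48 hours. The 7 genes of the pyruvate dehydrogenase complex and its kinases split into 2 higher and 3 lower at 24 hours, and 3 higher and 1 lower at 48 hours. Over all tested genes 33.9% were higher and 34.6% lower at 24 hours, and 33.1% and 33.9% at 48 hours, so the counts from uptake to aldolase at 24 hours lay near the background.

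The calls depend on how libraries were scaled, and the deposited scaling assumes that most genes do not change. Under quantile normalization, 9 of the 31 were higher and 10 lower at 24 hours (29.0% and 32.3%, against 36.5% and 31.9% of all tested genes). At 48 hours 14 were higher and 8 lower (45.2% and 25.8%, against 36.6% and 31.2%). When libraries were scaled to equal totals, which moved the median of all genes to -0.12 at 24 hours and -0.17 at 48 hours, 11 were higher and 9 lower at 24 hours (35.5% and 29.0%, against 27.8% and 40.3% of all tested genes). With the same scaling 15 were higher and 9 lower at 48 hours (48.4% and 29.0%, against 25.0% and 41.7%). The 50 most abundant genes took 13.3% of the 24-hour reads in DMSO against 17.9% to 18.2% in AZD5153, and 14.5% to 14.7% of the 48-hour reads against 17.3% to 17.4%. The part of this shift in the results was not tested.

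The 300 bases around a start site are shown for 4 genes, chosen after their values were seen: *LDHA*, *PKM* and *TPI1* among those higher at both times and *PDK2* among those lower. All 4 have a RefSeq start at the start of their MANE Select transcript. Each runs from 250 bases before to 50 bases after the start, 5′ to 3′ on the gene's strand, from RefSeq on GRCh38.p14. Capitals mark ACGTG or its reverse complement CACGT, 1 of the 2 core forms of the element that HIFs are known to bind (the other is GCGTG), which overlap as CACGTG, the canonical E-box. The windows belong to *LDHA* (ENSG00000134333), *PKM* (ENSG00000067225), *TPI1* (ENSG00000111669) and *PDK2* (ENSG00000005882). The *LDHA* window lies at chr11:18394313-18394612 on the plus strand, *PKM* at chr15:72231141-72231440 on the minus strand, *TPI1* at chr12:6867281-6867580 on the plus strand and *PDK2* at chr17:50095101-50095400 on the plus strand.
LDHA: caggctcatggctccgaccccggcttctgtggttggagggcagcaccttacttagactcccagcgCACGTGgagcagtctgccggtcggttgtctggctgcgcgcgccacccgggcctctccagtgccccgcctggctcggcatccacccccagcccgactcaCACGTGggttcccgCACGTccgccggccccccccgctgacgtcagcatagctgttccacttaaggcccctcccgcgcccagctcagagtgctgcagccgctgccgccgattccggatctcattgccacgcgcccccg
PKM: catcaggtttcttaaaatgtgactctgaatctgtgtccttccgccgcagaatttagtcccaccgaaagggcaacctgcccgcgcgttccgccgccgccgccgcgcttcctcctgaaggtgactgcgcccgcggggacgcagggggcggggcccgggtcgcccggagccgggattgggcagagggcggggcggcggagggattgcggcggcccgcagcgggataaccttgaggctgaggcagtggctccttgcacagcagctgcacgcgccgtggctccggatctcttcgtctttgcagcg
TPI1: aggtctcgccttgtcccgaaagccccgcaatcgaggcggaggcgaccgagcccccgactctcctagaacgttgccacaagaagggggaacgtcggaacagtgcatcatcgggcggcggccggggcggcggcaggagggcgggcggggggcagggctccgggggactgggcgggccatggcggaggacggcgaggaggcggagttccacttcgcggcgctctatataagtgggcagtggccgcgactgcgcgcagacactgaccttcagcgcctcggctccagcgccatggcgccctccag
PDK2: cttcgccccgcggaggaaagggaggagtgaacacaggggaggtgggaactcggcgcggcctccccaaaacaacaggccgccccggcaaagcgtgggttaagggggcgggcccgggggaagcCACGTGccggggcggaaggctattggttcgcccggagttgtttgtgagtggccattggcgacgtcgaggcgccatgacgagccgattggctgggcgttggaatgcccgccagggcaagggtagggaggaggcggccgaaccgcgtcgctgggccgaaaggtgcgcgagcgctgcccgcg

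The *LDHA* promoter held CACGTG with its first base 185 and 87 bases before the start, and a further CACGT 73 bases before it. *PDK2*, which fell, held CACGTG 129 bases before its start. *PKM* and *TPI1*, which rose, did not hold ACGTG in this window, and *PKM* but not *TPI1* held the other form, GCGTG, on either strand. RefSeq promoters were found for 28 of the 31 genes (not *SLC2A3*, *PFKFB2* and *SLC16A1*), and the promoter nearest to each MANE Select start was used. Its start was the MANE Select start except for *PFKM* (3283 bases away), *PGAM1* (1627), *GAPDH* (747), *PFKP* (422), *HK1* (217) and *GPI* (204). Of the 28, 15 held ACGTG on either strand, 53.6% against 21.4% of all 35116 promoters of that length. The 35116 include alternative promoters of a gene, such as 7 for *HK1*, so the 2 shares are not fully alike. GCGTG or its reverse complement CACGC was in 16 of the 28, 57.1% against 36.5% of all promoters. The GC box letters GGGCGG, searched on both strands, were in 24 of the 28, 85.7% against 45.0% of all promoters. ACGTG was in 7 of the 11 matched genes that were higher at both times, and in 1 of the 2 matched genes that were lower. *GAPDH* and *GPI*, whose promoters lay away from the MANE Select start, are among those 7. A match is a description of the letters and not a site.

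The facilitative transporters best known in brain are *SLC2A1* (GLUT1) and the high-affinity *SLC2A3* (GLUT3), and here they moved apart. *SLC2A3* read 2202, 2494 and 2387 normalized counts in DMSO and 1399.8, 1371 and 1448 in AZD5153 at 24 hours, then 3694, 3412 and 3664 and 855, 849.7 and 917 at 48 hours. Every AZD5153 library was below every DMSO library at both times, and with time the DMSO libraries went up and the AZD5153 libraries down. The log2 fold change was -0.75 ± 0.06 (SE) at 24 hours and -2.04 ± 0.06 at 48 hours (limma adjusted p = 1.8e-08 and 1.7e-13), and the difference between times was -1.29 ± 0.09 (adjusted p = 1.2e-07). *SLC2A1* read 1208, 1532 and 1581 in DMSO and 1126, 1184 and 1127 in AZD5153 at 24 hours, then 1403, 1356 and 1323 and 1879, 1809 and 1905 at 48 hours. The groups did not overlap at either time, but AZD5153 was the lower at 24 hours and the higher at 48 hours. Its log2 fold change of -0.32 ± 0.08 became 0.45 ± 0.08 (limma adjusted p = 0.0026 and 0.00013), a difference of 0.77 ± 0.12 between times (adjusted p = 0.0002).

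The ratio of the 2 transporters inverted at 48 hours. Per kilobase of the MANE Select transcript, *SLC2A3* made up 59.3% ± 2.28 (SD, n = 3) of the pair in DMSO at 24 hours and 52.0% ± 1.32 in AZD5153. At 48 hours it made up 70.0% ± 1.01 in DMSO and 29.3% ± 0.58 in AZD5153. With the length of all annotated exons instead, these shares were 60.0%, 52.8%, 70.6% and 29.9%. The log2 ratio of *SLC2A3* to *SLC2A1* changed with AZD5153 by -0.43 at 24 hours and -2.49 at 48 hours, -1.46 on average (exact two-sided permutation within times, p = 0.005, the smallest the 400 arrangements can give, and 0.01 adjusted over 14 pairs).

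Hexokinases phosphorylate glucose on entry, *HK1* as the form of most tissues and *HK2* as the inducible form common in tumors. *HK1* read 6307, 6070.1 and 6224 in DMSO and 6554, 6687 and 6464 in AZD5153 at 24 hours, then 6349, 6143 and 6256 and 7921, 7811 and 7777 at 48 hours. The AZD5153 libraries lay above the DMSO libraries at both times, by 0.08 ± 0.04 at 24 hours, which did not pass (limma adjusted p = 0.071; 0.034 if the first DMSO library of that time is left out), and by 0.33 ± 0.04 at 48 hours (adjusted p = 1.9e-06). The 24-hour change of *HK1* also passed with TMM scaling (0.10, limma adjusted p = 0.0305) and with edgeR (0.10, edgeR adjusted p = 0.0366). With equal totals it was -0.04 (limma adjusted p = 0.381). *HK2* read 2561, 2599 and 2459 in DMSO and 2130.5, 2206 and 2126 in AZD5153 at 24 hours, then 1603, 1761 and 1728 and 2395, 2401 and 2501 at 48 hours. In DMSO it fell by 0.58 (log2) from 24 to 48 hours (limma adjusted p = 9.4e-07), and in AZD5153 it rose by 0.18 (adjusted p = 0.018). AZD5153 thus lay -0.24 ± 0.05 from DMSO at 24 hours and 0.52 ± 0.05 at 48 hours (limma adjusted p = 0.00079 and 2.3e-07), with no overlap at either time. *HK1* remained the larger of the pair per kilobase in every group, at 79.2% to 85.2% on average, while the log2 ratio of *HK2* to *HK1* changed by -0.32 at 24 hours and 0.19 at 48 hours. The libraries of the 2 treatments did not overlap in this ratio at either time, and the test covers only the average of these opposite changes, -0.063 (exact permutation, adjusted p = 0.54).

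*GPI*, phosphoglucose isomerase, which turns glucose 6-phosphate into fructose 6-phosphate, read 4965, 5579 and 5635 in DMSO and 6475, 6639.9 and 6616 in AZD5153 at 24 hours, then 4772, 4786 and 4823 and 6745, 6859 and 6808 at 48 hours. All 6 AZD5153 libraries were above all 6 DMSO libraries. The rise was 0.29 ± 0.05 at 24 hours and 0.51 ± 0.05 at 48 hours (log2 ± SE; limma adjusted p = 6.8e-05 and 1.4e-07).

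The 3 subunits of phosphofructokinase-1, the committed step, did not move together. *PFKP*, the platelet form, read 3788, 3879 and 4053 in DMSO and 2787, 2777 and 2645 in AZD5153 at 24 hours, then 3063, 3013 and 3090.2 and 3059, 3067 and 2972 at 48 hours. It was lower in all AZD5153 libraries at 24 hours (-0.51 ± 0.05, limma adjusted p = 6.5e-08), and overlapped with DMSO at 48 hours, where the change was -0.01 (adjusted p = 0.847). With equal totals and with quantile normalization *PFKP* was called lower at 48 hours too, with changes of -0.18 and -0.15 (limma adjusted p = 0.00222 and 0.00821). *PFKM*, the muscle form, read 3422, 3257 and 3455 and 3717, 3870.3 and 3525 at 24 hours in DMSO and AZD5153, then 3462, 3461 and 3390.4 and 4043, 3689.8 and 3718 at 48 hours. It was higher by 0.13 ± 0.05 and 0.15 ± 0.05 (limma adjusted p = 0.033 and 0.018), a size that scaling to equal totals took to 0.01 at 24 hours and -0.02 at 48 hours. The 24-hour call was lost without DMSO replicate 2 or AZD5153 replicate 1 or 2 of that time (0.0754 to 0.142), and the 48-hour call without DMSO replicate 3 or AZD5153 replicate 1 (0.053 and 0.107). Quantile normalization and scaling to 7 stably expressed genes also lost the 24-hour call of *PFKM* (0.10 and 0.09, limma adjusted p = 0.123 and 0.24). So did a fit of only the groups compared and no minimum mean (0.0857 and 0.0717). *PFKL*, the liver form, read 1435, 2024 and 2224 and 1679, 1874 and 1597 at 24 hours, then 2163, 2266 and 2079.6 and 1825, 1734 and 1776 at 48 hours. Its DMSO libraries at 24 hours were widely spread, the lowest being the library that stood apart. The change of -0.12 ± 0.12 at 24 hours (limma adjusted p = 0.366) was -0.31 without that library (adjusted p = 0.00012), and at 48 hours *PFKL* was lower (-0.29 ± 0.12, adjusted p = 0.039), a call that was lost when any 1 of the 48-hour libraries or replicate 1 of AZD5153 at 24 hours was left out. That 48-hour call was also lost with scaling to 7 stably expressed genes (-0.26, limma adjusted p = 0.0655) and with no minimum mean (0.0591). Within libraries, the log2 ratio of *PFKP* to *PFKM* changed with AZD5153 by -0.65 at 24 hours and -0.16 at 48 hours (exact permutation, p = 0.005, adjusted 0.01), and that of *PFKL* to *PFKM* by -0.25 and -0.44 (adjusted p = 0.031, but 0.0544 or 0.0622 if 24-hour DMSO replicate 2 or 3 is left out). Without the library that stood apart the latter ratio changed by -0.45 at 24 hours.

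PFKFB enzymes set the level of fructose 2,6-bisphosphate, the strongest activator of phosphofructokinase-1, and *PFKFB3* favors its synthesis. *PFKFB3* read 1227, 1392 and 1557 in DMSO and 1966, 2038 and 1879 in AZD5153 at 24 hours, then 1537, 1583 and 1514 and 1421, 1273 and 1373 at 48 hours. AZD5153 libraries were all above DMSO at 24 hours and all below it at 48 hours. The log2 fold change was 0.50 ± 0.08 and then -0.19 ± 0.08 (limma adjusted p = 2.5e-05 and 0.038), a difference of -0.69 ± 0.11 (adjusted p = 0.00029). The call at 48 hours was lost without AZD5153 replicate 2 or 3 or any DMSO replicate at that time, with adjusted p of 0.0579 to 0.153. It was also lost with scaling to 7 stably expressed genes (-0.16, limma adjusted p = 0.105) and with no minimum mean (0.0648). *PFKFB4* read 666, 792 and 774 in DMSO and 658, 612 and 558 in AZD5153 at 24 hours, then 935, 977 and 889 and 512, 549.8 and 459 at 48 hours. It fell at both times with no overlap (-0.29 ± 0.09 and -0.88 ± 0.09, limma adjusted p = 0.011 and 3.4e-07), the former missing the threshold if 24-hour replicate 3 of AZD5153 or 2 of DMSO was left out (0.0579 and 0.0538). *PFKFB2* read 371, 409 and 365 in DMSO and 406, 369.6 and 350.1 in AZD5153 at 24 hours, then 422, 373 and 491 and 356, 417 and 329 at 48 hours. Its groups overlapped at both times and it did not pass the test. The log2 ratio of *PFKFB3* to *PFKFB4* was higher with AZD5153 at both times, by 0.79 and 0.69 (exact permutation, p = 0.005, adjusted 0.01), although *PFKFB3* itself changed sign.

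**Figure D2:**
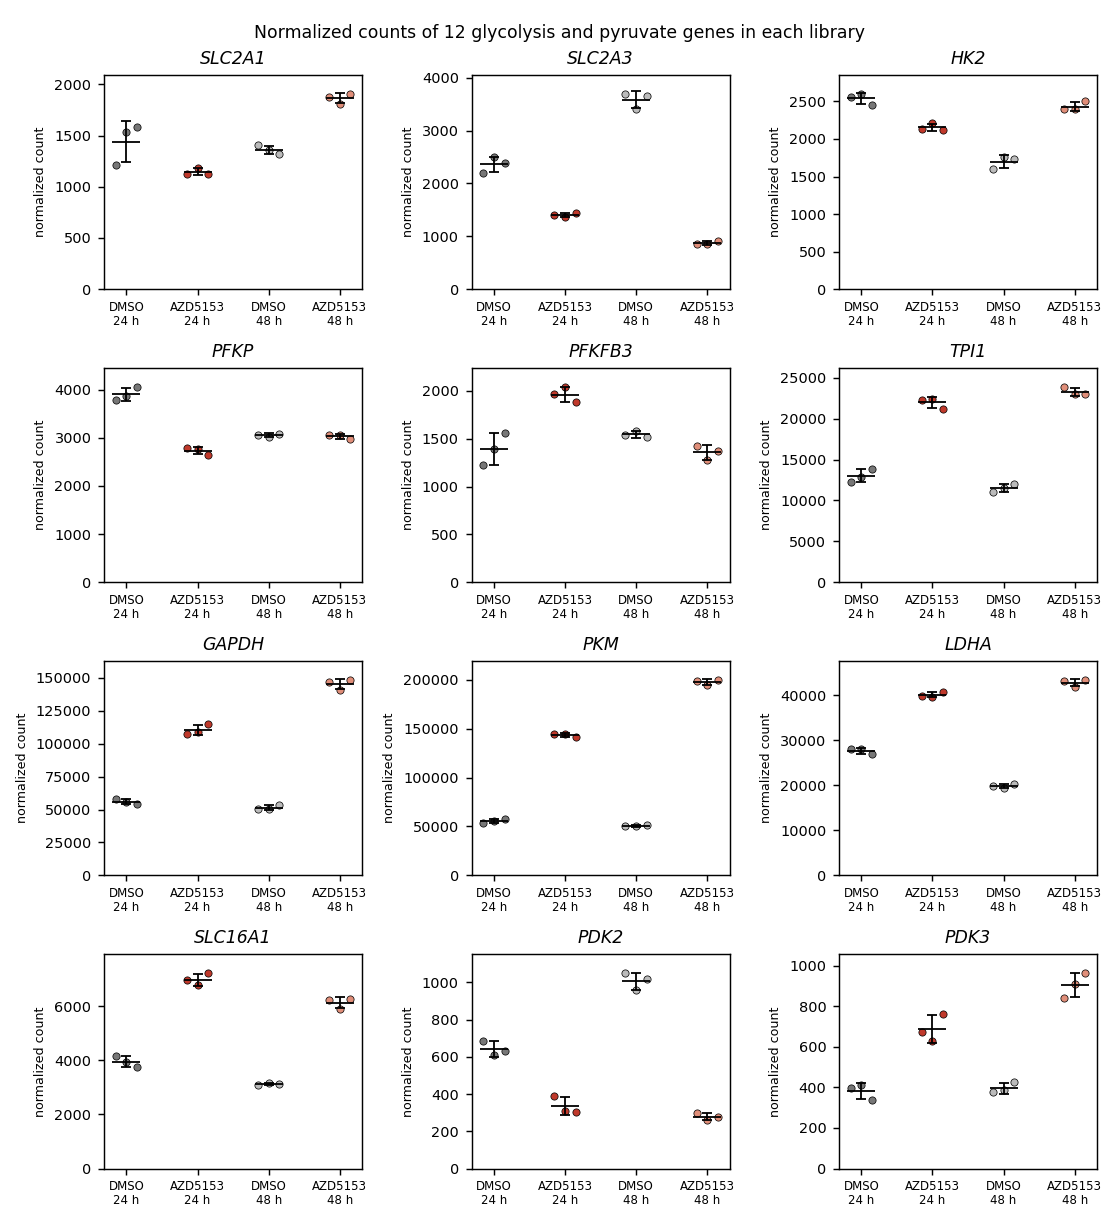
Normalized counts of 12 of the genes in each of the 12 libraries, by group (points), with the mean and SD of 3 libraries (black) and every axis starting at 0. *GAPDH*, *PKM*, *LDHA*, *TPI1*, *SLC16A1* and *PDK3* were higher at both times, *SLC2A3* and *PDK2* lower at both times, and *SLC2A1*, *HK2* and *PFKFB3* changed direction, all by the deposited scaling (under quantile normalization *GAPDH* and *LDHA* turned at 24 hours). *PFKP* was lower at 24 hours.

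Aldolase splits the hexose into 2 trioses. *ALDOA* read 55.2, 34.2 and 64.2 in DMSO and 227, 222 and 256 in AZD5153 at 24 hours, then 57.6, 52.3 and 37.8 and 129, 155 and 127 at 48 hours. The AZD5153 libraries were above every DMSO library at both times, by 2.22 ± 0.22 and 1.47 ± 0.22 (limma adjusted p = 2.1e-07 and 2e-05). These counts cannot be read as the gene's level: 89.8% of its MANE Select transcript lies in exons of ENSG00000285043, a protein-coding gene on the same strand, and how the authors' counting treated such reads was not stated. That gene moved the other way, its mean being 52.2 in DMSO against 18.9 in AZD5153 at 24 hours, then 49.1 against 15.3. *ALDOC*, the brain form, read 77.8, 78.3 and 67.8 in DMSO and 56.3, 62.5 and 60.0 in AZD5153 at 24 hours, then 83.8, 100.2 and 95.0 and 89.4, 101 and 71.9 at 48 hours. The AZD5153 libraries were the lower at 24 hours and overlapped with DMSO at 48 hours, and the gene did not pass at either time. The log2 ratio of *ALDOC* to *ALDOA*, changed by -2.06 on average (exact permutation, adjusted p = 0.01), shares the limit of the *ALDOA* counts.

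From here to pyruvate, every gene but *ENO2* was called higher at 48 hours, and every gene but *PGAM1* at 24 hours. *TPI1*, triose-phosphate isomerase, read 12299, 12888 and 13901 in DMSO and 22292, 22434 and 21231 in AZD5153 at 24 hours, then 11087, 11496 and 12069 and 23856, 22999 and 23043 at 48 hours. Its rise of 0.76 ± 0.05 and 1.01 ± 0.05 (limma adjusted p = 1.3e-09 and 4.3e-11) separated the groups without overlap. *GAPDH*, glyceraldehyde-3-phosphate dehydrogenase, a gene often used as an internal standard, read 57789.5, 55857 and 54181 in DMSO and 107242, 109282 and 114724 in AZD5153 at 24 hours, then 50345, 50108 and 53721 and 146896, 140906 and 148219 at 48 hours. The groups stood apart without overlap at both times, and the gap was wider at 48 hours. The log2 fold change was 0.98 ± 0.04 and 1.50 ± 0.04 (limma adjusted p = 1.6e-11 and 1.4e-13), a difference of 0.52 ± 0.06 between times (adjusted p = 2.8e-05). By rank, *GAPDH* was the gene in place 8 to 12 in 24-hour DMSO libraries and in place 12 under AZD5153, and it moved from place 12 to place 6 at 48 hours. Quantile normalization, which keeps only ranks, accordingly gave -0.15 at 24 hours (adjusted p = 0.0586). The 65 named pseudogenes of *GAPDH* together held 380 normalized counts on average.

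*PGK1*, phosphoglycerate kinase, the first step to yield ATP, read 12685, 12168 and 12962 in DMSO and 15174, 15055 and 14549 in AZD5153 at 24 hours, then 10474, 10005 and 10264 and 13684, 14121 and 13684 at 48 hours. It was higher in every AZD5153 library at both times, by 0.24 ± 0.04 and 0.43 ± 0.04 (limma adjusted p = 5.9e-05 and 1e-07), the former falling to 0.05 under quantile normalization (adjusted p = 0.276). *PGAM1*, phosphoglycerate mutase, read 4821, 6221 and 6221 in DMSO and 5496, 5684 and 5432 in AZD5153 at 24 hours, then 4809.9, 4763 and 4376 and 6131, 6267 and 5882 at 48 hours. The groups overlapped at 24 hours, with -0.05 ± 0.08 (limma adjusted p = 0.619), which became -0.17 without replicate 1 of DMSO (adjusted p = 0.00222), and *PGAM1* rose by 0.39 ± 0.08 at 48 hours (adjusted p = 0.00036).

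Enolase makes phosphoenolpyruvate, *ENO1* being the common form and *ENO2* the neuronal form. *ENO1* read 43815, 48448 and 50698 in DMSO and 52597, 53341 and 52004 in AZD5153 at 24 hours, then 41362, 42058 and 43866 and 53319, 51594 and 52849 at 48 hours. It was higher by 0.15 ± 0.05 and 0.31 ± 0.05 (limma adjusted p = 0.014 and 3.3e-05) without overlap, but fell under quantile normalization by 0.56 and 0.60 (adjusted p = 1.5e-09 and 8e-10), its rank going from 15 or 16 to 23 and, at the later time, from 15 to 22. Scaling to equal totals and to 7 stably expressed genes left the 24-hour change at 0.02 and 0.10 (adjusted p = 0.67 and 0.186), so the direction of *ENO1* rests on the scaling. Without replicate 1 of DMSO the 24-hour change was 0.087 (adjusted p = 0.0315). *ENO2* read 1389.8, 1565 and 1622 in DMSO and 1849, 1867 and 1772 in AZD5153 at 24 hours, then 1963, 2032 and 2196 and 2087, 2125 and 2143 at 48 hours. It was higher by 0.26 ± 0.06 at 24 hours (limma adjusted p = 0.0016; 0.14 with equal totals, 0.0535) and did not pass at 48 hours. Per kilobase *ENO1* held 96.4% to 97.6% of the pair in the group means, and the log2 ratio of *ENO2* to *ENO1* changed by 0.12 at 24 hours and -0.27 at 48 hours. The libraries did not overlap in this ratio at either time, and the test covers only the average of these opposite changes, -0.076 (exact permutation, adjusted p = 0.29).

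*PKM*, the pyruvate kinase of most tissues, which makes pyruvate and ATP, showed the largest rise in counts. It read 53821, 55523 and 57686 in DMSO and 144737, 144587 and 141325 in AZD5153 at 24 hours, then 50212, 50013 and 51548 and 198811, 194269 and 199295 at 48 hours. The AZD5153 libraries were thus 2.58 times the DMSO mean at 24 hours and 3.90 times at 48 hours. The log2 fold change was 1.37 ± 0.04 and 1.96 ± 0.04 (limma adjusted p = 7.4e-14 and 1.6e-15), a difference of 0.60 ± 0.05 between times (adjusted p = 1.8e-06), and *PKM* went from place 13 to place 3 among the tested genes at 48 hours. Under every scaling and every left-out library tried, *PKM* stayed higher and past the threshold at both times. Counts per gene do not separate its 2 spliced forms, PKM1 and PKM2.

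**Figure D3:**
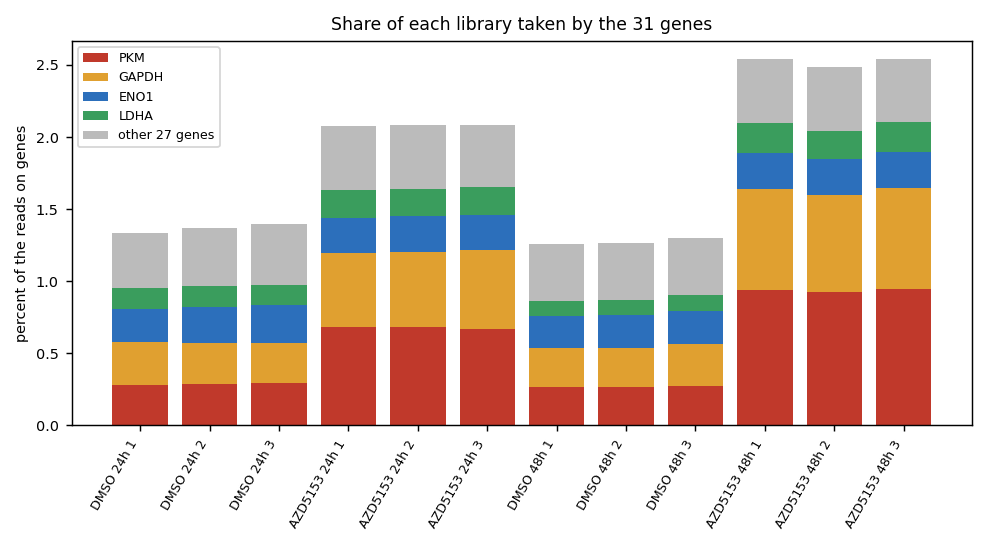
Percent of all reads on genes that fell on the 31 genes in each library, split into *PKM*, *GAPDH*, *ENO1*, *LDHA* and the other 27 genes. The 24-hour total was 1.33% to 1.40% in DMSO against 2.07% to 2.08% in AZD5153, and the 48-hour total 1.26% to 1.30% against 2.49% to 2.54%, most of the rise lying in *PKM* and *GAPDH*.

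As a share of all reads, which amounts to scaling libraries to equal totals, the 31 genes together took 1.37% ± 0.03 (SD, n = 3) of the 24-hour reads in DMSO against 2.08% ± 0.01 in AZD5153, and 1.27% ± 0.02 of the 48-hour reads against 2.52% ± 0.03. *PKM* and *GAPDH* made up 87.9% of that rise at 24 hours and 86.6% at 48 hours. Without them the other 29 genes took 0.79% and 0.88% at 24 hours, and 0.73% and 0.89% at 48 hours. Such a share counts long transcripts more than short ones. Per kilobase of MANE Select transcript, *GAPDH*, *ENO1*, *PKM*, *LDHA* and *TPI1* held the 5 highest levels of the 31 in DMSO at 24 hours, in that order, and in AZD5153 *PKM* stood above *ENO1*. With the length of all annotated exons *TPI1* stood above *LDHA* and the rest of this order was as given.

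*LDHA*, the lactate dehydrogenase subunit that favors making lactate, read 27945, 28066 and 26832 in DMSO and 39902, 39686 and 40759.5 in AZD5153 at 24 hours, then 19815, 19467 and 20374 and 43053, 41809 and 43274 at 48 hours. Its rise of 0.54 ± 0.04 and 1.10 ± 0.04 (limma adjusted p = 3.1e-09 and 7.2e-13) left no overlap. In DMSO, *LDHA* fell by 0.47 from 24 to 48 hours (adjusted p = 3.2e-07), while in AZD5153 it did not change past the threshold (adjusted p = 0.083). Under quantile normalization the 24-hour change was -0.14 (adjusted p = 0.00586), its rank being 32 to 34 in DMSO and 35 or 36 in AZD5153. *LDHB*, the subunit that favors pyruvate, read 122, 61.2 and 73.1 in DMSO and 83.1, 85.0 and 66.1 in AZD5153 at 24 hours, then 65.8, 70.0 and 77.7 and 49.2, 85.8 and 71.0 at 48 hours. It overlapped at both times and did not pass, and 76.5% of its transcript lies in exons of another same-strand gene, ENSG00000285854, so these counts cannot be read as its level either. The log2 ratio of *LDHA* to *LDHB*, higher by 0.90 on average (exact permutation, adjusted p = 0.01), has the same limit.

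Lactate leaves cells through monocarboxylate transporters, *SLC16A1* (MCT1) in most tissues and *SLC16A3* (MCT4) in strongly glycolytic cells, and here the pair diverged. *SLC16A1* read 4149, 3918 and 3759.6 in DMSO and 6953, 6765 and 7201 in AZD5153 at 24 hours, then 3096, 3168 and 3112 and 6221, 5891 and 6256 at 48 hours. It was higher in all 6 AZD5153 libraries, by 0.82 ± 0.05 and 0.97 ± 0.05 (limma adjusted p = 3.7e-10 and 5.6e-11). *SLC16A3* read 2819, 5487 and 6458 in DMSO and 5379, 5448 and 4667 in AZD5153 at 24 hours, then 6273, 6692 and 6155 and 3712, 3644 and 3325 at 48 hours. At 24 hours the groups overlapped because replicate 1 of DMSO lay below the others, and the change of 0.15 ± 0.20 (limma adjusted p = 0.509) became -0.21 without it (adjusted p = 0.00638). At 48 hours *SLC16A3* was lower in all 3 AZD5153 libraries (-0.84 ± 0.20, adjusted p = 0.0013). *CSNK1D*, whose exons cover 18.5% of this transcript on the other strand, averaged 3183 against 3889 (DMSO against AZD5153) at 24 hours, then 3868 against 3765. Whether counting used strand was not stated, so reads of the shared stretch cannot be told apart. The log2 ratio of *SLC16A3* to *SLC16A1* changed by -0.67 and -1.81 (exact permutation, adjusted p = 0.026). In replicate 1 of DMSO at 24 hours this ratio was -0.56, against 0.49 and 0.78 in the other two, and without it the 24-hour change was -1.07.

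**Figure D4:**
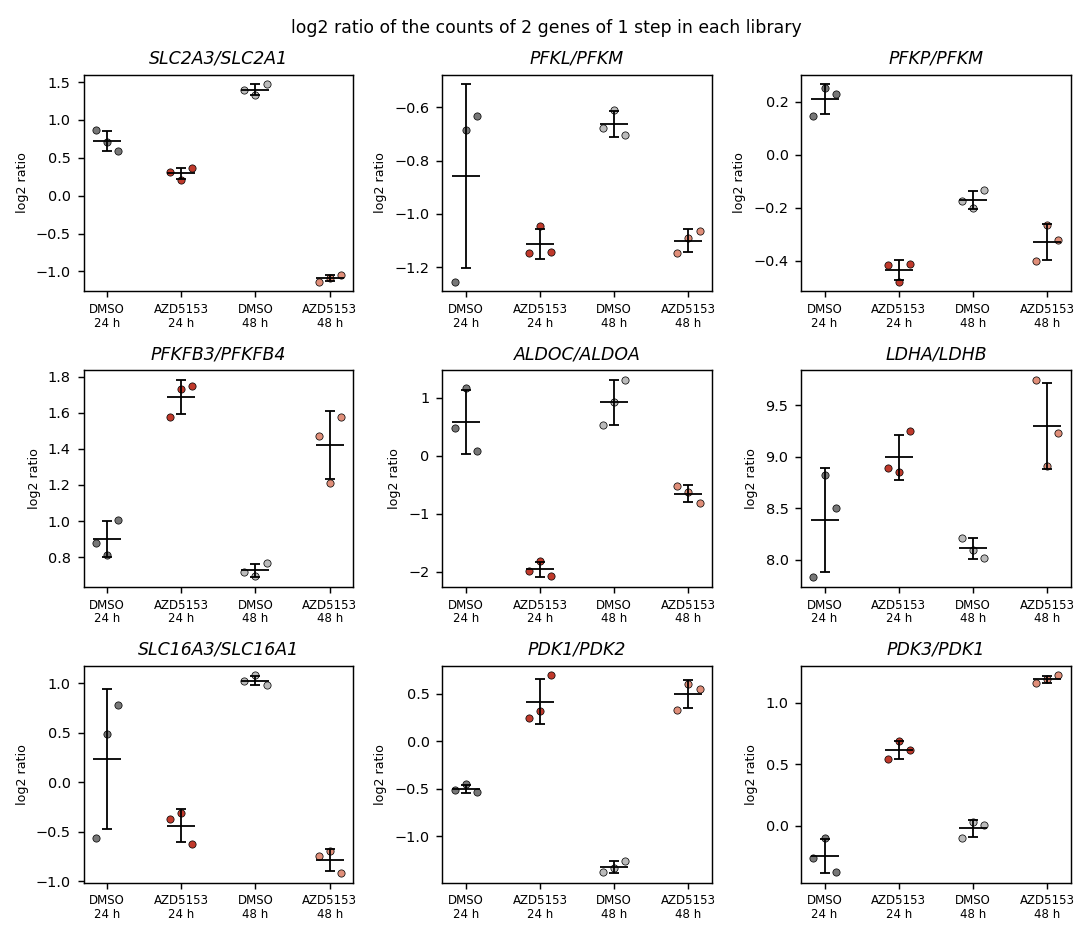
log2 ratio of the normalized counts of 2 genes of the same step in each of the 12 libraries (points, with mean and SD of 3), for the 9 of 14 pairs whose AZD5153 and DMSO libraries differed (exact permutation, adjusted p from 0.01 to 0.031). *SLC2A3* to *SLC2A1* goes from 1.40 in DMSO to -1.09 in AZD5153 at 48 hours; *ALDOA* and *LDHB* counts carry the overlap limit given in the text.

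PDK kinases phosphorylate and inhibit pyruvate dehydrogenase, and the 4 of them took different courses. *PDK2*, the most widely expressed form, read 686, 607 and 632 in DMSO and 390.2, 311 and 306 in AZD5153 at 24 hours, then 1048, 957 and 1016 and 298, 261 and 279 at 48 hours. It fell without overlap (-0.94 ± 0.10 and -1.85 ± 0.10, limma adjusted p = 4.1e-07 and 1.3e-10), and the difference between times was -0.91 ± 0.14 (adjusted p = 0.00025), DMSO itself having risen by 0.65. *SAMD14*, on the other strand over 62.8% of the transcript, averaged 46.5 and 133 counts in DMSO and 101 and 117 in AZD5153 at 24 and 48 hours. *PDK3* read 399, 413 and 336 in DMSO and 673, 628 and 763 in AZD5153 at 24 hours, then 375, 386 and 427 and 842, 907 and 961 at 48 hours. It rose at both times without overlap, by 0.85 ± 0.10 and 1.19 ± 0.10 (limma adjusted p = 1.4e-06 and 2.6e-08). *PDK1*, a HIF target, read 479, 443 and 436 in DMSO and 463, 388 and 496 in AZD5153 at 24 hours, then 403, 378 and 424 and 375, 397 and 411 at 48 hours, with overlap at both times and no call. *PDK4*, the form induced in fasting, read 104, 103 and 101 in DMSO and 37.5, 33.8 and 74.7 in AZD5153 at 24 hours, then 155, 143 and 140.4 and 104, 136 and 61.6 at 48 hours. Its change of -1.15 ± 0.28 passed at 24 hours (limma adjusted p = 0.0019), and the -0.61 ± 0.28 at 48 hours did not (adjusted p = 0.069). It passed at 48 hours when replicate 2 of AZD5153 at that time was left out (-0.86, adjusted p = 0.0197), or replicate 1 of DMSO or 3 of AZD5153 at 24 hours (0.034 and 0.0288). It also passed with equal totals (-0.78, limma adjusted p = 0.0238) and in the fit of only the 48-hour groups (0.0095).

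Among the 4 kinases, the share of *PDK2* per kilobase of MANE Select transcript went from 40.5% ± 2.52 (SD, n = 3) with DMSO to 18.6% ± 2.86 with the drug at 24 hours, and at 48 hours from 50.3% ± 1.59 to 12.7% ± 1.30. That of *PDK3* went from 46.6% ± 2.89 to 73.1% ± 2.07 and from 38.1% ± 1.95 to 78.8% ± 2.03. With the length of all annotated exons, the *PDK2* share was 61.0%, 43.4%, 69.2% and 33.8%, and that of *PDK3* 11.4%, 27.8%, 8.53% and 34.2%, so the direction held with both lengths while the order of the 2 kinases at 24 hours did not. The log2 ratios of *PDK1* to *PDK2* (0.92 and 1.82 higher with AZD5153) and of *PDK3* to *PDK1* (0.86 and 1.22 higher) both passed (exact permutation, p = 0.005, adjusted 0.01).

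Pyruvate dehydrogenase itself turns pyruvate into acetyl-CoA. *PDHB*, its E1 beta subunit, read 1479.9, 1262 and 1269 in DMSO and 2007, 1959.7 and 1945 in AZD5153 at 24 hours, then 1221, 1129 and 1157 and 1968, 2156 and 2039.8 at 48 hours. It rose by 0.56 ± 0.07 and 0.81 ± 0.07 without overlap (limma adjusted p = 1.6e-06 and 2.2e-08). *DLAT*, the E2 core subunit, read 2276, 2125 and 2281 in DMSO and 1909, 1915 and 1747 in AZD5153 at 24 hours, then 1707, 1676 and 1685 and 1959.5, 1771 and 1988 at 48 hours. It was lower at 24 hours and higher at 48 hours, with -0.26 ± 0.06 and 0.17 ± 0.06 (limma adjusted p = 0.001 and 0.018), but the latter call was lost without AZD5153 replicate 1 or 3 or DMSO replicate 2 of that time (adjusted p = 0.0509 to 0.084), and under equal totals and quantile normalization, where the change was 0.00046 and 0.07. *PDHA1*, the E1 alpha subunit, held group means of 1429.9 to 1670.3 normalized counts and did not pass at either time, its AZD5153 libraries overlapping with DMSO at 24 hours and lying above it at 48 hours.

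The effect of AZD5153 differed between 48 and 24 hours for 17 of the 31 genes, being more positive at 48 hours for 12 (38.7%, against 14.4% of all tested genes) and more negative for 5 (16.1%, against 10.1%). Of the 10961 genes that average 100 or more normalized counts, 2319 were more positive and 1334 more negative, both larger shares than over all tested genes. In DMSO alone, 4 genes rose from 24 to 48 hours and 13 fell, against 16.4% and 19.3% of all tested genes, and 6 of the 7 genes from *TPI1* to *PKM* were among those that fell. In AZD5153 alone, 10 rose and 5 fell, against 15.8% and 13.8%. These comparisons share libraries, so they are given side by side and not as separate support. Of the 12 genes with the more positive effect, 4 rose with time in AZD5153 and fell in DMSO (*HK2*, *PFKP*, *GAPDH* and *PKM*), 2 rose in AZD5153 and did not pass in DMSO (*SLC2A1* and *HK1*), and 6 fell in DMSO and did not pass in AZD5153 (*GPI*, *TPI1*, *PGK1*, *PGAM1*, *LDHA* and *DLAT*). Of the 5 with the more negative effect, *SLC2A3* and *PFKFB4* rose in DMSO and fell in AZD5153, *PDK2* passed the threshold in DMSO alone, where it rose, *PFKFB3* passed in AZD5153 alone, where it fell, and *SLC16A3* passed in neither. For *PKM*, the 2 courses were a fall of 0.14 in DMSO and a rise of 0.46 in AZD5153 (limma adjusted p = 0.0099 and 3.4e-07).

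Around these 31, a list of 36 further genes of glucose and pyruvate handling held 24 tested genes. The 24-hour comparison called 9 higher and 8 lower, the 48-hour comparison 10 higher and 11 lower, with medians of 0.0015 and -0.097 (log2). At 24 hours these are 37.5% and 33.3% of the 24, near the 33.9% and 34.6% of all tested genes, and at 48 hours 41.7% and 45.8%, against 33.1% and 33.9%. *SLC16A7* (MCT2), a high-affinity monocarboxylate transporter, fell from 1910.1 ± 231 to 663 ± 42.4 (mean ± SD, n = 3) and, at the later time, from 1477 ± 15.3 to 572 ± 23.8. *EMB*, an accessory protein of monocarboxylate transporters, fell by 1.31 and 0.93 on the log2 scale, and *SLC2A6*, a minor glucose transporter, by 1.08 and 1.32. *ARRDC4*, an arrestin that restrains glucose uptake, rose by 1.28 and 1.43, and *SLC2A13*, a myo-inositol transporter, by 1.16 and 1.03 (limma adjusted p for these 5 genes from 1.1e-10 to 5.1e-05).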

How the data were processed

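RNA-Seq reads of the 12 libraries were aligned by the authors to hg38 with STAR, counted per gene with HTSeq and normalized with DESeq2. Versions, annotation and strand setting were not given in the sources used here. The deposited values are normalized counts, a signal in which each gene's count is divided by 1 size factor per library. Dividing by the smallest step gave whole reads (within 0.1) for 100% of the values of up to 1000 reads. The deposited columns of the authors' own comparison (mean, fold change, standard error, statistic and p-values) were not used. CUT&RUN samples were not analysed here.

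Values were tested as log2(normalized count + 1) with limma 3.58.1 (trended empirical Bayes, 4 groups in 1 fit, 8 residual degrees of freedom; R 4.3.3) over the 15599 genes averaging 10 or more. Benjamini-Hochberg adjustment covered all tested genes at a threshold of 0.05. Contrasts were AZD5153 against DMSO at each time, their difference, and 48 against 24 hours within each treatment. Tested on simulated counts over 15454 genes, limma recovered 78.3% of 198 changed genes at 24 hours and 75.3% at 48 hours. Far fewer genes changed in that simulation than were called here, all by the same fold and at both times. Its recovery need not hold for these data. Ratios of 14 isoenzyme pairs were compared by exact two-sided permutation within times. Groups came from the sample labels. The main fit was planned without a block. Same-numbered libraries did not visibly deviate together, which does not settle whether the numbers mark shared cultures. Lengths and overlaps came from GENCODE 44, which held 60463 of the 60664 gene identifiers. Promoters came from RefSeq. Tables and plots used Python 3.11.15, numpy 2.4.6, pandas 2.3.3 and matplotlib 3.10.9.

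All 31 genes were named, with values per library for isoenzyme groups, for called differences between times, and for genes called at both times in 1 direction with an absolute log2 fold change of at least 0.5. From every other list, up to 5 genes called at both times with a mean of at least 100 and the largest average change were named, except 1 that is not reported here. The members and the lists (further glucose and pyruvate genes, HIF regulators, HIF targets, tricarboxylic acid cycle enzymes, and glial, myeloid, endothelial, neuronal and epithelial markers) were chosen with earlier results of these data known. The grouping by place in the pathway was made after the values were seen. Alternatives tried were other pseudocounts, minimum means and scalings, edgeR 4.0.16 and DESeq2 1.42.0 on the recovered reads, a replicate block, fits of only the groups compared, and each library left out. Chosen after seeing the data were a count without genes overlapped over more than 50% of their transcript, a second gene length, and 24-hour ratios without replicate 1 of DMSO.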

Additional observations from a re-analysis of the deposited data

Results flagged for a closer look

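For 17 of the 31 genes, the effect of AZD5153 differed between 48 and 24 hours in a test of the difference itself (limma, 12 libraries, adjusted p from 1.2e-07 to 0.031). The values are log2 fold changes at 48 hours minus those at 24 hours. Among transporters, the difference was 0.77 for *SLC2A1*, -1.29 for *SLC2A3* and -0.99 for the lactate exporter *SLC16A3*. In the early steps it was 0.24 for *HK1*, 0.76 for *HK2*, 0.22 for *GPI* and 0.50 for *PFKP*. The regulators *PFKFB3* and *PFKFB4* gave -0.69 and -0.60. From triose-phosphate to lactate it was 0.26 for *TPI1*, 0.52 for *GAPDH*, 0.19 for *PGK1*, 0.44 for *PGAM1*, 0.60 for *PKM* and 0.56 for *LDHA*. At the entry to mitochondria it was -0.91 for *PDK2* and 0.43 for *DLAT*. *SLC2A1*, *HK2*, *PFKFB3* and *DLAT* passed with opposite signs at the 2 times. Under quantile normalization 5 of these calls were lost, those for *HK1* (0.09, adjusted p = 0.282), *GPI* (0.12, 0.239), *TPI1* (0.13, 0.137), *PGK1* (0.06, 0.539) and *PGAM1* (0.31, 0.0544). The calls for *GPI* and *PGK1* were also lost with equal totals, TMM scaling, edgeR and no minimum mean (0.0568 to 0.0895), and without single libraries, with adjusted p up to 0.0778. For *SLC16A3* and *PGAM1* the 24-hour DMSO values rest on a library that stood apart: without it the differences were -0.63 and 0.56.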

How the results depend on the processing

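The results depended most on scaling. Under quantile normalization, 9 genes were higher at 24 hours instead of 14, with 10 lower. The share of higher among called genes went from 63.6% to 47.4% at 24 hours, and at 48 hours from 73.9% to 63.6%, or 62.5% with equal totals. Signs turned with equal totals for the median of the 31 genes and *HK1*, which is that median, at 24 hours (-0.040), *PFKM* at 48 hours (-0.022) and *ENO2* at 48 hours (-0.13). They turned under quantile normalization for *GAPDH* (-0.15) and *LDHA* (-0.14) at 24 hours, *ENO1* at 24 (-0.56) and 48 hours (-0.60), *PFKM* (-0.0094) and *ENO2* (-0.061) at 48 hours, and with scaling to 7 stable genes for *PFKP* at 48 hours (0.015). Leaving out 1 library gave -0.31 to 0.0074 for *PFKL*, -0.17 to 0.016 for *PGAM1* and -0.21 to 0.39 for *SLC16A3* at 24 hours, -0.021 to 0.0036 for *PFKP* at 48 hours and -0.024 to 0.11 for the *PFKL* to *PFKP* ratio. The cause was not tested. Without 1 library at a time, 13 to 15 genes were higher and 7 to 11 lower at 24 hours, 15 to 17 and 4 to 7 at 48 hours, 15 to 21 differed between times, and 14 to 19 in DMSO and 11 to 20 in AZD5153 differed from 24 to 48 hours. Of 69 values for named genes, 45 kept direction and call under every alternative run for them. Same-numbered libraries correlated at -0.15 to 0.04 (0 of 18 pairs over 0.1), and different-numbered ones at -0.11 to 0.15 (2 of 36). These values cannot show whether a number marks a shared culture or preparation. With the replicate block, 14 genes were higher and 8 lower at 24 hours, 17 and 5 at 48 hours, and *PFKFB3* at 48 hours lost its call (-0.19, limma adjusted p = 0.054). With that block, all isoenzyme ratios called without it lost their call (exact permutation, adjusted p = 0.0625 or 0.0972), with the same changes in log2 ratio. The smallest unadjusted p that this blocked test can give is 0.03125. After adjustment over 14 pairs, a ratio can pass only when most pairs reach that smallest p. The loss of these calls cannot be told apart from the coarse steps of the test. *PDK4*, *ALDOA*, *ALDOC* and *LDHB* rest on the lowest counts of the 31.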

Other observations

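*HIF1A*, the subunit stabilized in hypoxia, held 4182 ± 738 normalized counts (mean ± SD, n = 3) with DMSO against 4061 ± 264 with AZD5153 at 24 hours, then 3521 ± 37.3 against 4198 ± 41.9. It did not pass at 24 hours and was higher by 0.25 (log2) at 48 hours (limma adjusted p = 0.018), and it is named here after its values were seen. Of 8 tested genes of HIF control, 4 were higher at 24 hours and the other 4 did not pass, and 4 were higher and 1 lower at 48 hours, beside 33.9% higher and 34.6% lower of all tested genes at 24 hours and 33.1% and 33.9% at 48 hours. The 1 lower at 48 hours lost its call with the replicate block and without any 1 of 5 libraries of that time (all but replicate 2 of AZD5153), and with equal totals 3 were lower. At 24 hours 1 was called lower with equal totals, with quantile normalization, with scaling to 7 stable genes, with a minimum mean of 100, and without replicate 1 of DMSO or replicate 3 of DMSO at 48 hours, and 2 with no minimum mean. *HIF1AN*, the hydroxylase that inhibits HIF, rose by 0.83 and 0.85 (adjusted p = 4.1e-10 and 3.3e-10), and the counts of *EGLN1*, the main HIF prolyl hydroxylase, by 0.85 and 0.89. A same-strand gene, ENSG00000287856, covers 69.3% of the *EGLN1* transcript, so its counts, like those of *LDHB*, cannot be read as its level.

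Of 15 tested HIF targets outside glycolysis, 10 were higher and 3 lower at 24 hours, and 9 higher and 2 lower at 48 hours, with medians of 1.03 and 0.86. These are 66.7% and 20.0%, then 60.0% and 13.3%, of the 15, beside 33.9% and 34.6%, then 33.1% and 33.9%, of all tested genes. *ADM*, a vasodilator peptide, rose from 816 ± 97.7 to 4912 ± 297 and, at the later time, from 1011 ± 5.38 to 2749.5 ± 46.6. *BNIP3*, a mitophagy receptor, rose by 1.29 and 1.42, *NDRG1*, a stress-response gene, by 1.62 and 1.01, and *P4HA1*, a collagen prolyl hydroxylase, by 1.48 and 1.08. *VEGFA*, the angiogenic factor, went the other way, from 517 ± 112 to 89.3 ± 6.87 and from 741 ± 24.9 to 71.0 ± 25.1.

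All 16 enzyme genes of the tricarboxylic acid cycle list were tested, and 7 were higher and 3 lower at 24 hours, against 12 and 2 at 48 hours, with medians of 0.08 and 0.34. That is 43.8% and 18.8%, then 75.0% and 12.5%, beside 33.9% and 34.6%, then 33.1% and 33.9%, of all tested genes. With equal totals 5 were higher and 5 lower at 24 hours, and 8 were higher at 48 hours. Without replicate 2 or 3 of DMSO, or 1 or 2 of AZD5153, at 48 hours, 1 was lower at that time. *OGDH*, of the oxoglutarate dehydrogenase complex, rose from 4321 ± 517 to 14007 ± 148 and from 4375 ± 10.3 to 15075 ± 181. *IDH3A*, of isocitrate dehydrogenase, rose by 0.97 and 1.50, and *MDH2*, malate dehydrogenase, by 0.47 and 0.58. ACSBG1, on the other strand over 63.9% of the *IDH3A* transcript, averaged 4.32 counts. *SUCLG2*, the GTP-forming subunit of succinyl-CoA ligase, fell by 0.67 and 0.95. *BSG*, the chaperone of *SLC16A1* and *SLC16A3*, chosen after its values were seen, rose from 7197 ± 559.5 to 14334 ± 843 and from 7432 ± 166 to 15461 ± 205.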
